A study of Mus musculus with 4 samples.

Results

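The Zfp genes are the mouse genes whose official symbol is Zfp followed by a number, and those with exactly 3 digits are described here in mouse embryonic fibroblasts (MEFs) at an early and a late passage. They were picked by symbol alone, through the RefSeq transcript that each array probe names. That gave 241 genes read by 712 probes, of 17466 named genes and 43553 probes on the array besides controls. A further 80 of the 321 genes with such a symbol in the reference table had no probe here. The rule used no measured value, but the group was proposed with the comparison of passages known, so counts over the group are a description and nothing is read from them.

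MEFs are primary connective tissue cells from mouse embryos, which can be passaged only so often in culture. Growing cells at passage 2 were compared with cells at passage 7, where replicative senescence, a permanent stop of division after many passages, was setting in. Both groups were untreated cells in serum-containing medium, and the labels name no strain, sex or genetic change. Each passage was read on 2 one-colour arrays. RNA of 3 independent cultures was pooled beforehand, so the arrays of a passage may be technical repeats, and every p-value then measures only the spread between arrays. The arrays lay on 1 slide with the passages at different positions, and an effect of position cannot be told apart from passage.

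Zinc finger proteins of the Cys2His2 kind fold short loops around a zinc ion, and rows of such fingers read DNA a few bases at a time. They are the largest class of DNA-binding proteins in mammals. Many carry a KRAB domain, which recruits the corepressor Trim28 (KAP1) and, through it, the histone methyltransferase Setdb1 to silence retroelements and imprinted loci. The genes of the KRAB kind lie in rows of near copies that arose by tandem duplication. The symbol Zfp is a naming rule, not a pathway, and it also covers proteins of splicing, ribosome assembly and the spindle.

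The promoters of 3 of these genes are printed as examples. Zfp296 had the largest rise, Zfp219 rose and holds a Zfp143 site, and Zfp367 fell and holds sites also used by cell cycle genes. Whether any of these sites bears on the changes was not tested. Each runs from 250 bases before the transcript start to 30 bases after it, 5′ to 3′ on the strand of the gene, from RefSeq on GRCm38.p6. Capitals mark matches to the motifs listed further on. Zfp219 and Zfp367 each have 2 promoters in the table, of which 1 is shown. In that of Zfp219 the capitals mark a Zfp143 site, and in that of Zfp367 an E2F site and 3 CCAAT boxes. The other Zfp219 window holds a CHR element and a CCAAT box and no Zfp143 site, and the other Zfp367 window holds no match. The Zfp296 promoter held no match.
Zfp296, chr7:19577037-19577316, plus strand: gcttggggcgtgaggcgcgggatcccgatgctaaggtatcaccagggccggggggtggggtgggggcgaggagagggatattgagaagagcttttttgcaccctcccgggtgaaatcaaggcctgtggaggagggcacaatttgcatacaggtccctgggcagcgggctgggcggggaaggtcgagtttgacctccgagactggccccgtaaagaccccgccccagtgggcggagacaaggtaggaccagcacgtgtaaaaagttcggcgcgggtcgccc
Zfp219, chr14:52019684-52019963, minus strand: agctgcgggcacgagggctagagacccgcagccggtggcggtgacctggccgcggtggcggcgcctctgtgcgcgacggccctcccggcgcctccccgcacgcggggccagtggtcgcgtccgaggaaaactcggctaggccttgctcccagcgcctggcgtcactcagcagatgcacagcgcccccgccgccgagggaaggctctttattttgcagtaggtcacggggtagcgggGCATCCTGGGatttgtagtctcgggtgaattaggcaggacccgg
Zfp367, chr13:64153170-64153449, minus strand: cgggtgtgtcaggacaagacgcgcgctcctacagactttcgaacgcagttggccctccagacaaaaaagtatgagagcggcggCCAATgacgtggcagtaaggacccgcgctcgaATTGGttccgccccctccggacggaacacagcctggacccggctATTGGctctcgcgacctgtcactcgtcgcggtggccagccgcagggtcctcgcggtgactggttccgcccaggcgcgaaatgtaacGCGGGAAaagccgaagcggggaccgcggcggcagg

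Values are log2 signals relative to the 75th percentile of their array, so 0 is the signal of a fairly bright spot. A change is the passage 7 mean minus the passage 2 mean, given ± its standard error (SE) from limma, with 2 arrays per passage. Most genes (229) had 3 probes, and the one brightest on average stood for the gene. The gene was tested if both arrays of at least 1 passage showed this probe well above background. It was called at a Benjamini-Hochberg adjusted p under 0.05 over all tested genes and a change of at least 2-fold, and "rose" and "fell" are used for called genes only. Probes differ in how they hybridise, so levels are never compared between genes.

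Nearly all Zfp genes gave a signal in these cells. Of the 241, 219 were well above background on all 4 arrays and 6 on both passage 2 arrays but no passage 7 array. No gene showed the opposite pattern, 7 were above background on no array and 9 on some other combination. These patterns were not counted over all genes. The array labelled passage 7 replicate 2 was the dimmest, with a 75th percentile of 402 intensity units against 964 to 1404 on the others. On it 85.1% of the Zfp probes were above background, against 90.9% to 94.8% on the others. For all spots besides controls the share was 65.8% on it, against 70.6% to 72.7%. In all 232 genes were tested. The 9 that were not are Zfp300, Zfp345, Zfp459, Zfp474, Zfp488, Zfp663, Zfp872, Zfp980 and Zfp987.

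Markers of fibroblasts and of other cell types were read too. All 9 tested fibroblast markers, among them the collagens Col1a1, Col1a2 and Col3a1, were well above background on every array. So were 4 of 4 neural, 3 of 4 macrophage, 3 of 4 skeletal muscle, 5 of 7 epithelial and 3 of 5 endothelial markers. Detection alone therefore does not set fibroblasts apart. Of the 9 fibroblast markers, Pdgfra and Lum fell and none rose. Markers of other cell types moved too, with 2 of 4 macrophage markers called lower (Adgre1 and Csf1r). The log2 of the macrophage markers' summed signal was 1.15 and 1.03 at passage 2 and -0.05 and 0.24 at passage 7. Of 4 skeletal muscle markers Des fell 6.27-fold, and the log2 of their sum went from -0.31 and -0.75 to -2.40 and -1.93. The endothelial marker Emcn (of 5) rose 4.16-fold, but the median change of that list was -0.15. Its others changed by 0.84 (Kdr), -0.15 (Pecam1), -0.71 (Cdh5) and -0.91 (Tek), none called. The neural marker Map2 (of 4) rose 2.37-fold, while Nes changed by 0.89, Tubb3 by -0.26 and Sox2 by -0.88, none called. The part of such cells in the Zfp results was not tested, and in a bulk sample fewer cells of a type and less RNA per cell cannot be told apart.

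Of the 232 tested Zfp genes, 10 rose (4.31%) and 26 fell (11.2%) between passage 2 and passage 7, 15.5% in all. Over all 13848 tested genes 19.4% were called, 9.99% higher and 9.42% lower. With each array scaled to its median instead, the Zfp split was 9 higher and 43 lower. The median change of the Zfp genes was -0.20, and that of all tested genes 0.20, a shift that enters every single change given here. The quartiles of the Zfp changes were -0.69 and 0.33, where those of all genes were -0.35 and 0.66. Of the Zfp genes 71.6% lay below the median of all genes. The changes were mostly small, with 81% of the Zfp genes within 2-fold, against 76.4% of all genes.

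**Figure D1:**
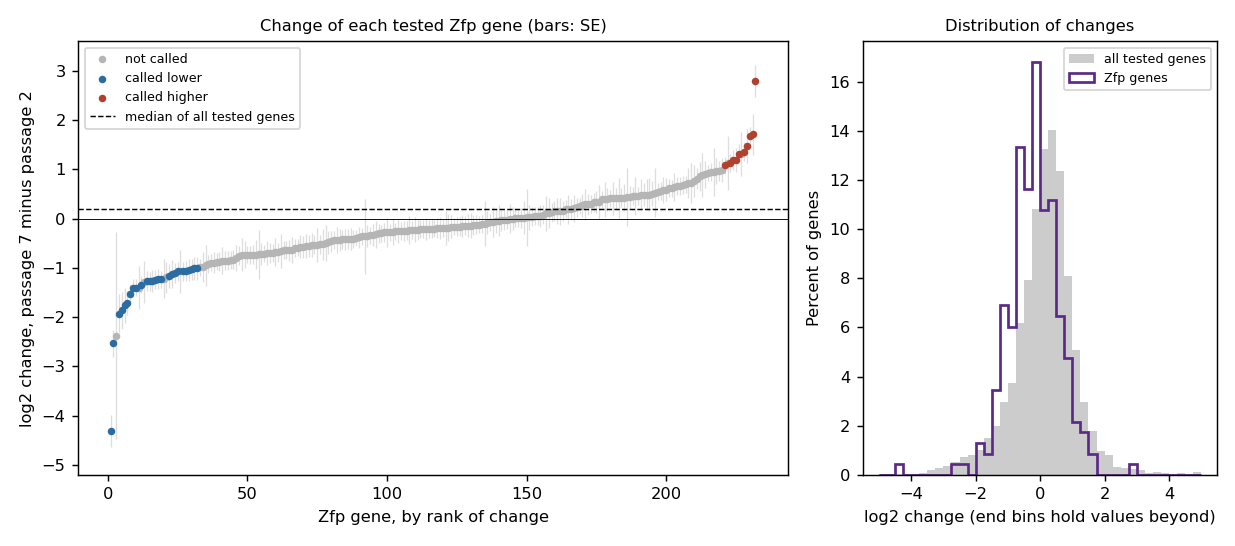
Left, log2 change from passage 2 to passage 7 of each of the 232 tested Zfp genes, by rank, with SE bars from limma; called genes are coloured. Right, the distribution of these changes as percent of genes beside that of all 13848 tested genes. The Zfp genes lie to the left of all genes, with medians of -0.20 and 0.20.

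The same lean was seen array by array. For 109 Zfp genes (47%) both passage 7 arrays lay below both passage 2 arrays, and for 56 (24.1%) both lay above. Over all genes with 4 values these shares were 27.8% below and 40.6% above. In a called gene a lack of overlap goes largely with the call itself, so where it is given below it describes the values and adds no support. The median Zfp signal, set against the median of all genes on the same array, was -1.03 and -0.86 at passage 2 and -1.24 on both passage 7 arrays. Since these are different probes, only the shift between passages is read from this offset, which was lower on both passage 7 arrays than on either passage 2 array.

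The changes were also set against the signal of the probe, which depends on how it hybridises as well as on the transcript. With the probes of all tested genes split into 4 equal groups by mean signal, 147 of the 232 Zfp probes lay in the dimmer pair of groups. The median Zfp change was -0.26, -0.26, -0.20 and 0.43 from the dimmest to the brightest group. All genes had 0.25, 0.07, 0.07 and 0.38 there. The 21 Zfp genes of the brightest group therefore sat close to the other genes of that group, and those of the 3 dimmer groups sat below them. The part of probe brightness in the change was not tested.

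The size of these counts depended on the background correction and on single arrays. With normexp correction of the median spot intensity limma called no gene of the 13841 tested (419 higher and 243 lower at an unadjusted p under 0.05, of which 4 and 2 were Zfp genes), and the median Zfp change was 0.45 against 0.50 for all genes. With the local background of marked spots replaced first, 6 Zfp genes were called higher and 3 lower, at medians of 0.12 and 0.38. Without passage 2 replicate 1, passage 2 replicate 2, passage 7 replicate 1 or passage 7 replicate 2, the counts were 12, 6, 4 and 3 higher and 29, 11, 4 and 4 lower. Of the called genes, Zfp296, Zfp219, Zfp711 and Zfp395 kept their call whichever array was left out.

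Zfp296 rose the most. It encodes a finger protein of germ cells and embryonic stem cells that can aid reprogramming to pluripotency. Its signals were -2.84 and -3.66 at passage 2 and -0.38 and -0.51 at passage 7. Both senescent-stage arrays were far above both growing arrays, and the passage 2 arrays differed more from each other than the passage 7 arrays did. The change of 2.80 ± 0.32 was 6.98-fold (adjusted p = 0.0097). The gene's other probes gave 2.97 and 2.92. Left-out arrays moved the change between 2.40 and 3.21.

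Zfp219, which binds Sox9 as a partner in cartilage cells, also rose. It read 2.89 and 2.74 at passage 2 and 4.48 and 4.50 at passage 7. The arrays of a passage lay close together and the passages did not overlap. The change was 1.68 ± 0.18, or 3.21-fold (adjusted p = 0.0086), and both other probes gave 1.68.

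Zfp346 (JAZ) encodes a nucleolar protein that binds double-stranded RNA and has been tied to p53. Its signals were -1.82 and -1.64 at passage 2 and -0.47 and -0.28 at passage 7, with no overlap. The rise was 1.36 ± 0.19, or 2.57-fold (adjusted p = 0.014), and the other probes gave 1.08 and 1.15. Without passage 7 replicate 1 or 2 the adjusted p was 0.055 and 0.095.

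Zfp239 (Mok2), which binds DNA and RNA and interacts with lamin A/C, read 0.73 and 0.19 at passage 2 and 1.67 and 2.67 at passage 7. The passages did not overlap, but the arrays within each were far apart. The change was 1.71 ± 0.41, or 3.26-fold (adjusted p = 0.044). The gene's other probes went the opposite way, at -0.46 and -0.56, and with the mean of all its probes the change was 0.23 (adjusted p = 0.43). Without passage 2 replicate 1, passage 2 replicate 2 or passage 7 replicate 2 the adjusted p was 0.076, 0.15 and 0.13. It was the 1 called gene of the group with another measured probe of the opposite sign.

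A pair of genes with tissue-restricted roles rose from very low signal. Zfp750, a driver of terminal differentiation in the epidermis, had a single probe that read -7.75 and -6.88 at passage 2 and -5.95 and -5.73 at passage 7. Of the 2 passage 2 arrays, 1 showed it above background. Its change was 1.48 ± 0.34, or 2.78-fold (adjusted p = 0.041). Zfp541, a gene of meiotic germ cells, read -6.77 and -6.92 at passage 2 and -5.62 and -5.43 at passage 7, a change of 1.32 ± 0.19, or 2.5-fold (adjusted p = 0.014). Both passage 7 arrays lay above both passage 2 arrays for each gene, close to the bottom of the measured range. In the authors' value table the changes were 0.26 for Zfp750 and 0.22 for Zfp541, and neither was called. Without passage 7 replicate 2 the adjusted p was 0.14 for Zfp750 and 0.10 for Zfp541, and without passage 7 replicate 1 it was 0.079 and 0.058. Without passage 2 replicate 2 it was 0.051 for Zfp541.

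Epithelial markers moved beside Zfp750. Of 7 tested epithelial and keratinocyte markers, 1 rose and 3 fell. Ivl, the cornified envelope protein involucrin, read -4.46 and -4.36 at passage 2 and 1.71 and 1.35 at passage 7, a change of 5.94 ± 0.21, or 61.4-fold (adjusted p = 0.0050). The keratins Krt8, Krt14 and Krt18 fell, by 1.90, 2.33 and 1.91 on the log2 scale. The log2 of the list's summed signal was 0.29 and 0.11 at passage 2 and 1.82 and 1.56 at passage 7, where Ivl was the list's 1 called rise, and the list's median change was -1.90. The part of such cells in the Zfp750 signal was not tested.

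The other called rises were of genes with little described function. Zfp771 read 3.49 and 3.20 at passage 2 and 4.30 and 4.77 at passage 7, a change of 1.19 ± 0.25 (adjusted p = 0.032). Zfp691 read -0.34 and -0.21, then 0.73 and 1.1, a change of 1.19 ± 0.21 (adjusted p = 0.023). Neither gene overlapped between passages, but each lost its call without any 1 of the 4 arrays, with an adjusted p of up to 0.18 for Zfp771 and 0.16 for Zfp691, both without passage 7 replicate 2. The probes of Zfp691 disagreed, with others at 0.04 and 1.22, and their mean gave 0.82. In the authors' value table Zfp691 changed by 0.88 and was not called. Zfp697 read -0.58 and -0.48, then 0.60 and 0.60, a change of 1.13 ± 0.18 (adjusted p = 0.017). Zfp688 read -2.75 and -2.83, then -1.67 and -1.75, a change of 1.08 ± 0.18 (adjusted p = 0.018). In the authors' value table Zfp697 changed by 0.95 and Zfp688 by 0.84, and neither was called there or with median scaling. In both genes each passage's arrays were nearly equal, all other probes gave at least 1.11, and the call was lost without either passage 7 array (adjusted p of 0.12 without replicate 2 in both). It was lost for Zfp688 also without passage 2 replicate 2 (adjusted p = 0.054).

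**Figure D2:**
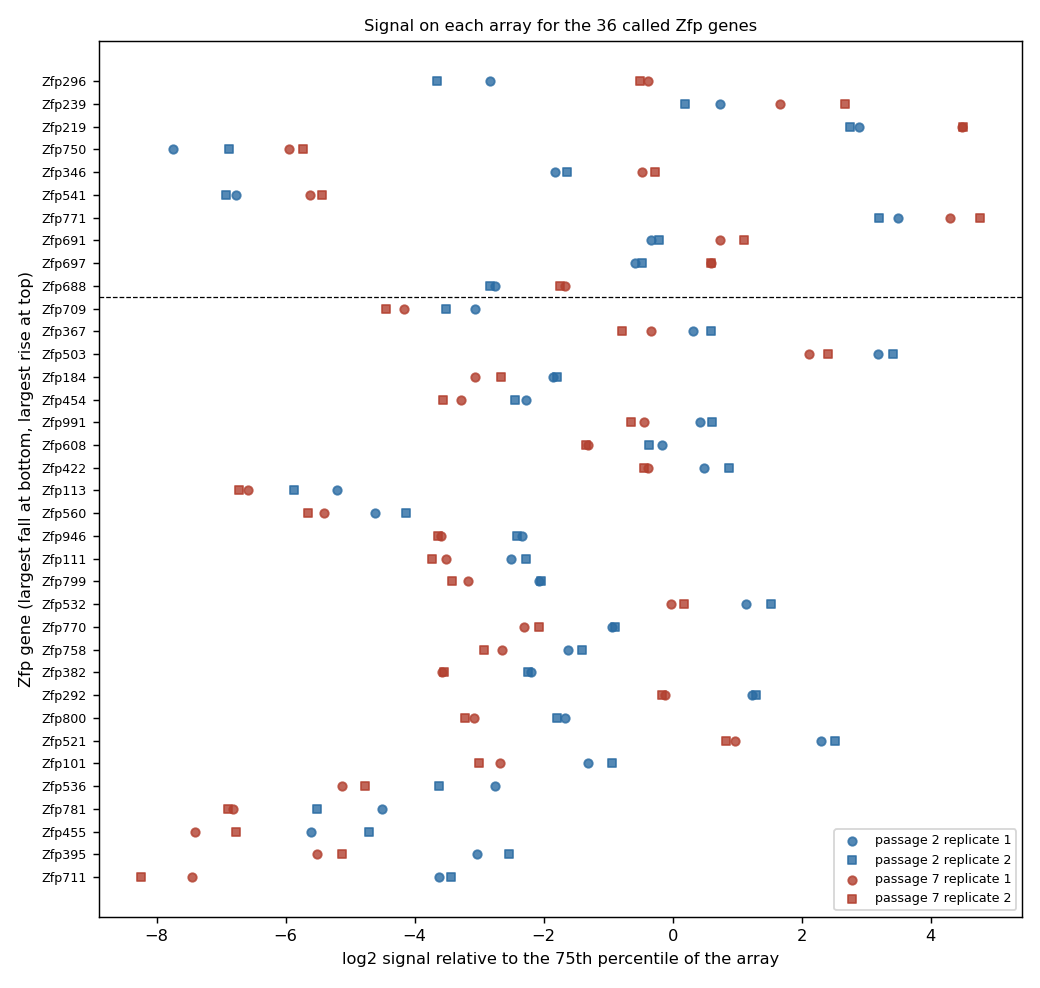
log2 signal on each of the 4 arrays, relative to the 75th percentile of the array, for the 36 called Zfp genes, ordered by change; symbols mark the passage and replicate. In every called gene the arrays of the passages do not overlap, which goes largely with the call itself. Of all genes with 4 values, 40.6% lay above and 27.8% below at passage 7 without overlap. Zfp711 at the bottom and Zfp296 at the top are the farthest apart.

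Zfp711 fell the most. This X-linked gene encodes a transcriptional activator that works with the histone demethylase Phf8, and its human counterpart is mutated in intellectual disability. It read -3.62 and -3.44 at passage 2 and -7.45 and -8.24 at passage 7. Neither passage 7 array was well above background, so the fall is given against a floor, described under processing. It was 15.1-fold (adjusted p = 0.0052 for the fitted change). That floor is not a detection limit, as Zfp819 read -5.8 on passage 7 replicate 2 without being well above background. Both other Zfp711 probes were likewise above background at passage 2 only, and gave -2.01 and -3.39. With an array left out the fitted change lay between -4.71 and -3.92 and stayed called. It was -2.05, and called, in the authors' value table, and 0.54 with normexp, where nothing was called.

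Zfp395, which binds a GC-rich promoter element and responds to hypoxia, read -3.03 and -2.54 at passage 2 and -5.51 and -5.13 at passage 7. The passages were well separated. The change was -2.53 ± 0.27, a 5.78-fold fall (adjusted p = 0.0083), and the other probes gave -3.20 and -2.73. With normexp the direction turned (0.35).

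The next falls include genes known from development, named here for their size or role. Zfp521, which restrains differentiation in blood, fat and bone progenitors, read 2.30 and 2.51 at passage 2 and 0.96 and 0.82 at passage 7. The change was -1.52 ± 0.19, a 2.86-fold fall (adjusted p = 0.011), with -1.39 and -1.40 at the other probes. Zfp536, which represses neuronal differentiation, read -2.75 and -3.63, then -5.13 and -4.77, a change of -1.76 ± 0.36 (adjusted p = 0.030). Zfp503 (Nolz1), a corepressor of limb and brain development, read 3.18 and 3.41, then 2.11 and 2.41, a change of -1.03 ± 0.21 (adjusted p = 0.031). In all 3 genes the passage 7 arrays lay below the passage 2 arrays. Zfp521 lost its call without passage 7 replicate 2 (adjusted p = 0.069), and Zfp536 without passage 7 replicate 1 (0.08) or 2 (0.063). Zfp503 lost it without passage 2 replicate 2 (0.087), passage 7 replicate 1 (0.17) or passage 7 replicate 2 (0.11). With normexp Zfp536 turned positive (0.72).

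Zfp292, described first as an activator of the growth hormone gene, read 1.23 and 1.29 at passage 2 and -0.12 and -0.16 at passage 7. Its change of -1.40 ± 0.17 was a 2.64-fold fall (adjusted p = 0.011), and its other probes gave -1.12 and -1.03. Zfp382, a KRAB repressor whose human counterpart is silenced in tumours, read -2.20 and -2.24, then -3.58 and -3.55, a change of -1.34 ± 0.17 (adjusted p = 0.012). The arrays of a passage nearly coincided for both genes. Without passage 7 replicate 1 or 2 the adjusted p was 0.057 and 0.074 for Zfp292 and 0.066 and 0.077 for Zfp382, which turned positive with normexp (0.25).

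Among the remaining falls named by size, Zfp101 read -1.31 and -0.94 at passage 2 and -2.67 and -3.01 at passage 7, a change of -1.71 ± 0.24 (adjusted p = 0.014). Zfp800 read -1.67 and -1.80, then -3.08 and -3.22, a change of -1.41 ± 0.18 (adjusted p = 0.012). Zfp781 read -4.50 and -5.52, then -6.82 and -6.90, a change of -1.86 ± 0.38 (adjusted p = 0.030) with a single passage 7 array above background. None of these 3 overlapped between passages. Zfp758 changed by -1.27 ± 0.20 (adjusted p = 0.018) and Zfp770 by -1.27 ± 0.19 (adjusted p = 0.015). The 1 other probe of Zfp770 was too dim to count as measured and gave 0.12. With the mean of its probes Zfp770 was not called. Zfp455 read -5.61 and -4.71, then -7.40 and -6.77, with no passage 7 array above background. Against the floor used for such probes it fell 3.54-fold (adjusted p = 0.031 for the fitted change). Each of these 6 lost its call without at least 1 array. The highest adjusted p without passage 7 replicate 2 was 0.065 for Zfp101, 0.081 for Zfp800, 0.087 for Zfp781 and 0.12 for Zfp758. It was 0.089 for Zfp770 without passage 7 replicate 1 and 0.082 for Zfp455 without passage 2 replicate 2. With normexp the change turned positive for Zfp781 (1.49), Zfp455 (1.46), Zfp800 (0.10) and Zfp758 (0.06), and with marked backgrounds replaced for Zfp781 (0.45) and Zfp455 (0.29). In the authors' value table Zfp781 changed by -0.73 and Zfp455 by -0.78, neither called.

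The other 14 called falls, Zfp503 among them, lay between 2.02-fold and 2.39-fold. They included Zfp532, Zfp799, Zfp946, Zfp111, Zfp184 and Zfp367. Of all 26 called falls, 22 kept their call with at least 1 of the 4 arrays left out, and 2 with any of them. Of the 10 rises these counts were 8 and 2.

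Other probes of a gene gave a check on the representing probe. They read the same RNA on the same arrays, so their agreement concerns errors of a single probe only. It cannot show whether an effect of an array or its position moved all probes together. Of the 26 genes that fell, 25 had another measured probe, and in all 25 every other probe had the same sign. In 18 of them all others were past 2-fold. Of the 10 that rose, 8 had another measured probe, 7 with the same sign throughout and 6 past 2-fold throughout. Over all Zfp genes with at least 3 measured probes (203), the changes spanned a median of 0.20 from lowest to highest probe. All probes were higher at passage 7 in 49 of these genes, all lower in 116 and mixed in 38. No such count was made over all genes, so nothing is read from it. Tested probe by probe, 25 of 658 Zfp probes were called higher (3.8%) and 79 lower (12%), where 9.76% and 10.8% of all tested probes were. Probes of near-identical genes may read each other's transcripts, which these values cannot tell apart.

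**Figure D3:**
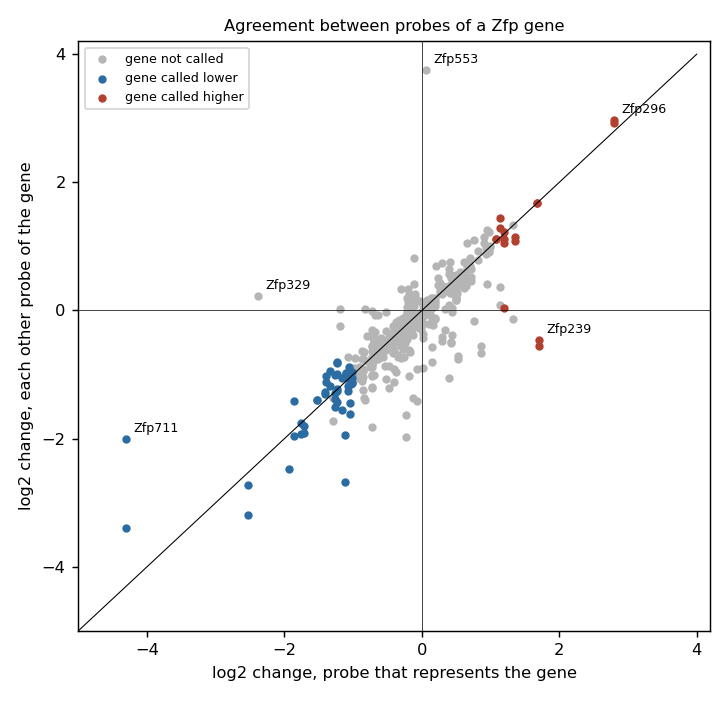
log2 change of each other measured probe (vertical) against the change of the probe that represents the gene (horizontal), for 426 other probes of 221 Zfp genes; colours mark genes called higher or lower. Most points lie near the diagonal, and 369 have the sign of the representing probe.

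The widest gap between probes came from a single spot. One Zfp553 probe read -7.55 on passage 2 replicate 2 only, and the probes of that gene spanned 3.69 in change. The next widest were those of Zfp711 (2.30) and Zfp239 (2.27). A single spot also stood apart in Zfp329, which read -3.19, -3.72, -9.05 and -2.61 on the 4 arrays, with passage 7 replicate 1 far below the rest. Its change was -2.38 ± 2.1 (adjusted p = 0.44), and its 1 other measured probe gave 0.23. In 16 genes the probes spanned 1 or more on the log2 scale.

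Zfp genes were also grouped by known role, and called genes stood on both sides. For comparison with these lists, 9.99% of all tested genes were called higher and 9.42% lower. The lists are too short for their counts to be read against those shares. Of the 13 genes of growth, replication and RNA handling, 1 rose (Zfp296) and 1 fell (Zfp367), with a median of -0.21. Zfp367 read 0.31 and 0.59 at passage 2 and -0.34 and -0.79 at passage 7, a change of -1.01 ± 0.24, or a 2.02-fold fall (adjusted p = 0.044). It barely passed the 2-fold limit and lost its call without any 1 array, with an adjusted p between 0.067 and 0.26. Zfp281, a repressor and pluripotency regulator, read 0.52 and 0.49, then -0.40 and -0.37, and its change of -0.89 ± 0.17 (adjusted p = 0.027) was under 2-fold. With median scaling it was -1.06 and called.

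Of the genes of that list that act at ribosomes, none was called by the representing probe. Zfp593 read 0.44 and 0.51 at passage 2 and 1.40 and 1.42 at passage 7, a change of 0.93 ± 0.17 (adjusted p = 0.024) that fell short of 2-fold. Zfp622, a factor of the large subunit, changed by 0.76 ± 0.32 (adjusted p = 0.15). Zfp598, which marks collided ribosomes, changed by 0.34 (adjusted p = 0.3). The other probes of Zfp622 disagreed, with 1 called higher (1.1 ± 0.26, adjusted p = 0.038 over probes) and 1 at -0.17 ± 0.33 (0.72).

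The remaining genes of the list stayed within 2-fold and were not called. Zfp207 (BuGZ), which loads the checkpoint protein Bub3 at kinetochores, changed by -0.21 ± 0.18 (adjusted p = 0.44). Zfp143, an activator of promoters and of small nuclear RNA genes, read -0.86 and -0.20, then -1.20 and -1.31, a change of -0.73 ± 0.28 (adjusted p = 0.12), with -0.56 and -0.01 at its other probes. Without passage 2 replicate 1, the lower of its growing arrays, the change was -1.06 and called (adjusted p = 0.042). Zfp473, of histone mRNA processing, changed by -0.28 (adjusted p = 0.32), and Zfp326, of the splicing-linked DBIRD complex, by -0.59 (adjusted p = 0.068). Zfp410, the activator of Chd4, changed by 0.19 (adjusted p = 0.67), Zfp335 by 0.49 (0.19) and Zfp217 by -0.43 (0.28).

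Of 11 tested genes of mesenchymal and fat lineage, Zfp219 rose and Zfp521 and Zfp503 fell, with a median of 0.03. Zfp467, which favours fat over bone, changed by -0.71 ± 0.17 (adjusted p = 0.046), under 2-fold. Zfp516, of brown fat, changed by -0.63 (adjusted p = 0.14) and Zfp638, an adipogenic cofactor, by 0.03 (0.94). Zfp703, a relative of Zfp503, gave 0.46 (0.14), and Zfp704 gave 0.19 (0.53). Zfp384 (Nmp4), which restrains bone formation, gave 0.01 (0.98). Zfp148 gave 0.39 (0.16). Zfp106 gave 1.13 ± 0.55 (0.19), and without passage 2 replicate 2 it was 1.92 and called (0.035), while its other probes gave 0.36 and 0.08.

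None of the 5 tested genes of imprinting and retroelement silencing was called by limma, and 1 was lower at an unadjusted p under 0.05. Zfp445, which guards imprints, changed by -0.66 ± 0.35 (adjusted p = 0.22). Zfp568, a repressor of a placental Igf2 transcript, changed by 0.53 ± 0.50 (0.47), while its other probes gave -0.76 and -0.71. Zfp809, which silences murine leukaemia virus elements, changed by 0.23 ± 0.20 (0.45). Zfp708, of the same kind, read -3.97 and -4.13, then -4.79 and -5.01, and changed by -0.85 ± 0.19 (0.039). It was under 2-fold here and past it, and called, with median scaling (-1.02) and quantile normalisation (-1.07).

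Of 4 genes tied to senescence or p53, Zfp346 rose and the others did not pass. Zfp277, a partner of the Polycomb protein Bmi1 at the Ink4a/Arf locus, read -3.63 and -3.50 at passage 2 and -3.43 and -3.77 at passage 7. The passages overlapped and the change was -0.03 ± 0.21 (adjusted p = 0.92). Zfp365, a p53 target that guards genome stability, changed by -0.11 ± 0.19 (0.68), and Zfp668 by 0.39 ± 0.35 (0.44). In the epidermal pair Zfp750 rose, and the probes of Zfp185 disagreed. Its representing probe changed by -0.07 ± 0.31 (0.88), and its other probes gave -1.41 ± 0.19 (called lower, adjusted p = 0.010 over probes) and -0.91 ± 0.17 (0.023).

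**Figure D4:**
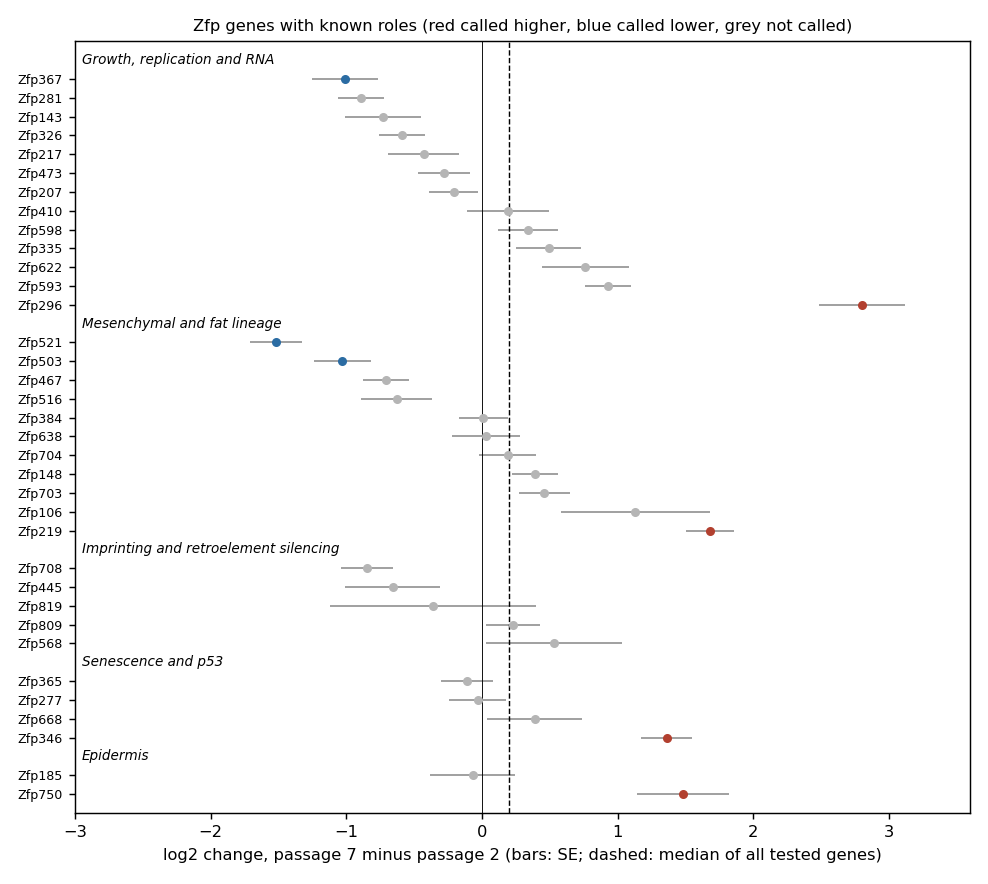
log2 change from passage 2 to passage 7 with SE bars for the tested Zfp genes of 5 role lists; red marks genes called higher, blue called lower, grey not called, and the dashed line the median of all tested genes at 0.20. Called genes stand on both sides, from Zfp521 at -1.52 to Zfp296 at 2.80.

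Trim28 and Setdb1, through which KRAB zinc finger proteins act, were read on the same arrays in a wider list. This Trim28 list also holds other chromatin genes, among them the histone methyltransferases Suv39h1, Suv39h2, Ehmt1 and Ehmt2. Of its 23 tested genes, none rose by limma (3 were higher at an unadjusted p under 0.05) and 3 fell, with a median of -0.44. Over all tested genes 9.99% were called higher and 9.42% lower. Suv39h1 and Suv39h2, which set the H3K9 trimethyl mark of constitutive heterochromatin, were both among the 3 that fell. Suv39h1 read -1.60 and -1.47 at passage 2 and -3.17 and -3.21 at passage 7, a change of -1.65 ± 0.18 or a 3.14-fold fall (adjusted p = 0.0087). Suv39h2 read -5.03 and -4.63, then -7.55 and -7.59 with neither passage 7 array above background. Against the floor used for such probes it fell 5.91-fold (adjusted p = 0.0057 for the fitted change). Its change turned positive with normexp (1.33) and with marked backgrounds replaced (0.16). Smarcad1, a remodeller that holds Trim28 at chromatin, read -0.37 and -0.14, then -1.62 and -1.85, a 2.78-fold fall (adjusted p = 0.013). It lost its call without passage 7 replicate 2 (adjusted p = 0.081). Trim28 itself read 4.54 and 4.45, then 3.93 and 4.19, and its change of -0.44 ± 0.19 did not pass (adjusted p = 0.16). Setdb1 changed by -0.66 ± 0.24 (adjusted p = 0.11). Without passage 2 replicate 1, 5 genes of the list were called lower.

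Other zinc finger families gave other medians. Over all tested genes 9.99% were called higher and 9.42% lower. Zfp genes of other symbol forms had a median change of -0.35 over 71 tested genes. Of them 0 were called higher by limma (4 at an unadjusted p under 0.05) and 10 lower (14.1%). The 37 Zbtb genes, whose fingers come with a BTB domain, had a median of 0.00, with 3 higher (8.11%) and 2 lower (5.41%). The 20 Zscan and Zkscan genes, with a SCAN domain, had a median of 0.03, with 1 higher (5%) and 0 lower. The 16 Klf genes had 0.23, and 1 of them (6.25%) was called lower. Differences between the families were not tested.

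Neighbouring Zfp genes were compared next, since many lie side by side. Runs were taken as members in a row with at most 2 other protein-coding genes between neighbours, which gave 39 runs with 122 members. The 116 tested genes inside runs had a median change of -0.27, with 3 called higher and 11 lower. The 116 outside had -0.16, with 7 higher and 15 lower. In runs 2.59% were thus called higher and 9.48% lower, and outside 6.03% and 12.9%, where all tested genes had 9.99% and 9.42%. Below the median of all genes lay 86 of the genes in runs and 80 of the others.

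Of the 8 runs with at least 5 members, 6 had a median at or below -0.48. The longest, from Zfp708 to Zfp459, had 8 tested genes, a median of -0.66 and 7 genes below the median of all genes. Zfp455 was its 1 called gene, and Zfp595 its highest at 0.44. The run from Zfp948 to Zfp947 was the most even, with all 5 genes between -0.87 and -0.21, none called by limma and 2 lower at an unadjusted p under 0.05. The run from Zfp991 to Zfp933 had the lowest median, -0.83, yet held Zfp933 at 0.97 ± 0.20 (adjusted p = 0.030). The run from Zfp786 to Zfp467 had a median of 0.05. The run from Zfp768 to Zfp689 went the other way, with a median of 0.33, and it held Zfp688, which rose. Neighbours of one run can be near copies, so their values are not independent of each other.

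**Figure D5:**
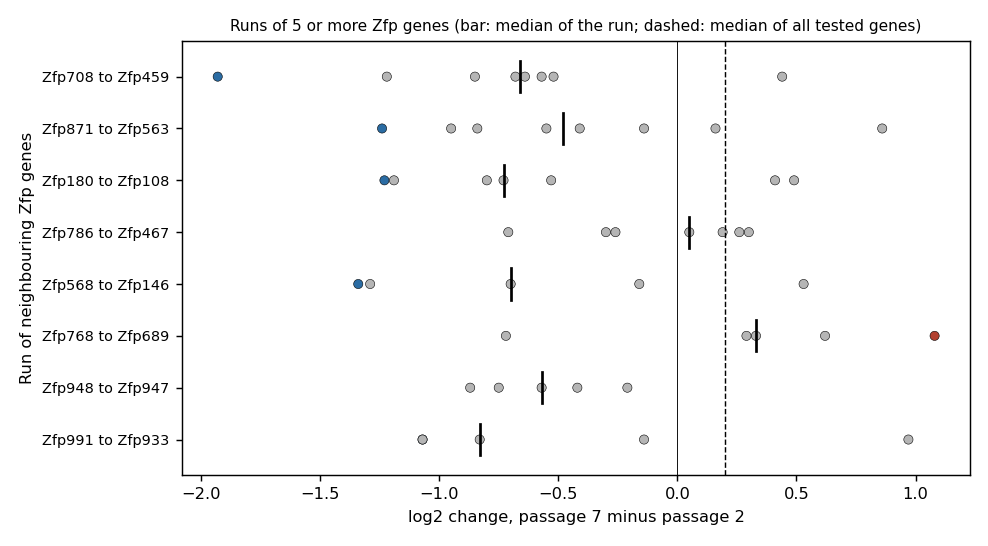
log2 change of the tested genes of the 8 runs with at least 5 neighbouring Zfp genes; each point is a gene, red called higher, blue called lower, the short bar is the median of the run and the dashed line that of all tested genes. The medians of 6 runs lie at or below -0.48, and those from Zfp786 to Zfp467 and from Zfp768 to Zfp689 lie at 0.05 and 0.33.

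Promoter sequence was matched for 190 of the 232 tested genes, with 234 promoters of 300 bases, from 250 bases before the start to 50 after it. The same windows of all tested genes (13971 promoters of 11035 genes) served as the comparison. Motifs were searched on both strands, and a match describes letters, not binding. The Zfp143 site, searched as CCCAG, any base and ATGC, was in 4.7% of the Zfp promoters, in 1.32% of those of all tested genes and in 1.0% of all promoters. By gene it was in 9 of 190 (4.74%) and in 174 of 11035 (1.58%). It stood at 3 of 9 genes called higher, 2 of 20 called lower and 4 of 161 not called. The matches at called genes are printed as windows of 30 bases on the strand of the gene, with the match in capitals in either orientation.
Zfp111, chr7:24208201-24208230, minus strand: ccaaactttaGCATTCTGGGaaatgtagtc
Zfp111, chr7:24208146-24208175, minus strand: ttccactgagGCATTCTGGGaatggtaatt
Zfp184, chr13:21944949-21944978, plus strand: actgcgcgttGCATTCTGGGaattgtggtc
Zfp219, chr14:52019708-52019737, minus strand: gggtagcgggGCATCCTGGGatttgtagtc
Zfp691, chr4:119174346-119174375, minus strand: aactacaactCCCAGCATGCcgcgcactaa
Zfp697, chr3:98382395-98382424, plus strand: acaaatcgagGCATGCTGGGaacattccct
The genes with this site did not move in one direction. Zfp219, Zfp691 and Zfp697 rose. Zfp111, with both of its matches close to the start, read -2.51 and -2.27 at passage 2 and -3.51 and -3.73 at passage 7, a change of -1.23 ± 0.20 (adjusted p = 0.019). Zfp184 read -1.85 and -1.80, then -3.06 and -2.66, a change of -1.04 ± 0.22 (adjusted p = 0.032). Without passage 7 replicate 2 the adjusted p of Zfp111 was 0.13, and without passage 7 replicate 1 that of Zfp184 was 0.18. Among the 4 uncalled genes Zfp109 changed by -1.19, Zfp169 by -0.42, Zfp212 by -0.26 and Zfp108 by 0.49.

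The other 5 motifs were set beside all tested genes in the same way. The E2F site TTCCCGC was in 7.69% of the Zfp promoters and 7.34% of those of all tested genes. The CHR element TTTGAA, used by genes of late cell cycle, was in 12% and 12.6%. The NRF1 site, GCGCA, any base and GCGC, was in 9.83% and 8.45%, and the YY1 site AAGATGG in 8.97% and 6.56%. The CCAAT box was in 45.7% of Zfp promoters against 37.6%. Among Zfp promoters the CCAAT box was in 5 of 25 (20%) of those of genes called lower. It was in 6 of 13 (46.2%) of those called higher and 96 of 196 (49%) of those not called. At such small counts other motifs differed by call too. The NRF1 site was in 16% of those called lower, 0% of those called higher and 9.69% of those not called. The Zfp promoters were somewhat poorer in G and C, with a median of 55.8% against 59.7%. These shares were not tested.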

How the data were processed

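Cy3-labelled total RNA was hybridised to custom Agilent arrays, 2 per passage. Per the file headers, images were quantified by Agilent's Feature Extraction software, version 10.5.1.1. The deposited spot files list, per spot, a median intensity, a background intensity, a processed signal intensity from which background was subtracted, and other marks (outlier, saturation and above-background flags). The authors' deposited value table is on a log2 scale. Its normalisation was not given in the sources used here. The submitters' processing notes name limma without a version. The array design was made on mm9. Probes were named by RefSeq accession through GRCm38.p6 tables, which also gave the promoters and the gene order.

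From the processed signal, log2 minus each array's 75th percentile was taken, without outlier spots, and spots of 1 probe were averaged. No Zfp spot was saturated. A probe dark on both arrays of a passage gives a bound against a floor: the brighter mean against, per array, the higher of the lowest signal above background and its own. This floor is not a detection limit, since some brighter probes were also not well above background. Genes were fitted with limma 3.58.1 (lmFit, eBayes) in R 4.3.3, two-sided, checked on simulated data. The members and lists were chosen with earlier results of these data known. Named genes are the 10 largest called rises and falls measured in both passages, called bounds and the role lists; Ivl, the keratins, Emcn, Map2, Des, other markers, Zfp329, Zfp553 and the genes named for runs or motifs were chosen after their values were seen. The normexp correction was run on the median spot intensity. The planned grouping by KRAB domain was not run, since no protein sequences were used here. Alternatives covered background, scaling, the authors' table, filters, probe choice, variance trend, threshold, the replicate block and leaving out each array. 1 gene with such a symbol is not reported here.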

Additional observations from a re-analysis of the deposited data

How the results depend on the processing

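The Zfp counts of 10 higher and 26 lower moved with the processing. They were 0 and 0 with normexp, 4 and 5 with normexp and quantile normalisation, and 6 and 3 with normexp after replacing marked backgrounds, an alternative chosen after seeing the data. The authors' value table called 6 higher, median scaling 43 lower and no filter on dim probes 12 lower. Leaving out 1 array gave 3 to 12 higher and 4 to 29 lower. Quantile normalisation (8 and 30), the all-array filter (9 and 22), the mean of all probes (10 and 27) and the intensity trend (8 and 24) stayed within 1.5 times of both counts. By adjusted p alone 15 were higher and 39 lower. Over all genes, normexp called 0, and the replicate block 522 higher and 651 lower, against 1384 and 1305.

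The median Zfp change relative to all genes, -0.40, was -0.04 with normexp, -0.15 with normexp and quantile normalisation, -0.32 with quantile normalisation, -0.28 in the authors' value table, -0.52 with no filter and -0.26 with replaced backgrounds. Leaving out 1 array gave -0.49 to -0.34. Its sign held in each setting run. The 3 genes of the Trim28 list called lower became 2 to 5 with an array left out, and 0 were called higher in each setting run.

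With normexp the change turned positive for Zfp395 (0.35), Zfp781 (1.49), Zfp536 (0.72), Zfp800 (0.10), Zfp382 (0.25), Zfp758 (0.06), Zfp455 (1.46), Zfp711 (0.54) and Suv39h2 (1.33). With replaced backgrounds it did so for Zfp781 (0.45), Zfp455 (0.29) and Suv39h2 (0.16). At passage 7, Zfp711, Zfp455 and Suv39h2 were well above background on neither array and Zfp781 on 1. Zfp395, Zfp536, Zfp800, Zfp382 and Zfp758 were so on both. The cause of the turned directions was not tested.

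With the replicate number as a block, 2 Zfp genes were called higher and 6 lower, and 8 of the 36 called genes remained. Same-numbered arrays share only a number, and their deviations correlated at -0.168 over 13812 genes. Crossed numbers gave 10 higher and 30 lower. The planned difference between KRAB-box genes and the others was not run.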
